A study of Mus musculus with 12 samples.

Results

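The genes described here encode 10 enzymes of glycolysis: Hk2, Gpi1, Pfkl, Aldoa, Aldoc, Tpi1, Pgk1, Eno1, Pkm and Ldha. They are 10 of the 55401 gene identifiers in the count tables, and all 10 were among the 17569 genes that passed the filter on low counts. They were chosen by their measured rise in these same libraries in both knockdowns described next, so their changes against the control are a description, without p-values. RNA was sequenced from Neuro-2a cells, a mouse neuroblastoma line, 48 hours after transfection, in 3 groups of 4 libraries. In every group cells received 1 µg of pCAGGs-linkB-IRES-GFP, which makes green fluorescent protein, with 3 µg of pCAG-miR30 plasmid, which makes artificial microRNAs, and only GFP-positive cells were collected. The control group (miScramble) received a scramble microRNA, the miRbmx group a pool of 3 plasmids against Rbmx, and the miRbmxl1 group a pool of 2 plasmids against Rbmxl1, so that the effect of a single microRNA cannot be told apart within a pool. Rbmx encodes an RNA-binding protein of the nucleus, and Rbmxl1 is a copy of it that arose by retrotransposition. The comparisons ask how RNA levels differ when either copy is reduced.

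Glycolysis splits glucose into pyruvate in the cytoplasm and yields ATP without oxygen, and lactate dehydrogenase then turns pyruvate into lactate and restores the NAD+ that the pathway uses. Several steps have alternative enzymes made from separate genes, which differ between tissues. Tumour cells and dividing cells often run the pathway at a high rate, and many of its genes are known to be induced by the hypoxia-inducible factors and by Myc proteins, which bind short E-box-like DNA motifs.

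Each library had between 43096846 and 52241198 reads in genes, and levels are given in CPM, the counts scaled to a common library size by TMM. Rbmx measured 57.6 to 73.3 CPM in scramble libraries and 22.2 to 32.6 CPM in miRbmx libraries, and Rbmxl1 measured 31.3 to 36.7 CPM in scramble and 12.3 to 16.7 CPM in miRbmxl1 libraries, so that each targeted gene was lower in its own group without overlap. Rbmx also rose in miRbmxl1, to 81.9 to 90.0 CPM, wholly above scramble (0.36 ± 0.07, edgeR adjusted p = 0.017), and Rbmxl1 in miRbmx measured 34.2 to 38.3 CPM (0.082 ± 0.086, adjusted p = 0.60), overlapping scramble. Of 15 markers of neuroblastoma and its sympathoadrenal lineage, 12 had a mean of at least 1 CPM in every group, with summed levels from 2088 to 2935 CPM. The summed blood and epithelial markers stayed at or under 0.126 CPM in each library, with Cd3e, Hbb-bs, Hba-a1, Epcam, Krt5 and Krt18 at 0. Among fibroblast markers only Pdgfra and Pdgfrb reached a mean of 1 CPM, and the glial markers Aqp4 and Mog had 0 counts. The labels number the replicates 1 to 4 in each group without saying what a number stands for. Libraries with the numbers 1 and 2 stood apart from those with 3 and 4 in all groups. Reads outside annotated features made up 26.3% to 29.2% of the file totals in replicates 1 and 2 and 30.8% to 32.2% in replicates 3 and 4. The replicate number, which the labels give in every group, was kept as a block in the model. The calls against scramble and between the knockdowns are given without the block too. In bulk RNA, more RNA per cell and more cells of one state cannot be told apart.

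The stretch before the transcription start is shown for 3 of the genes, those with more than 1 match before their first listed start to ACGTG or to GCGTG, the core letters of the motif that hypoxia-inducible factors are known to bind. The sequences are the 250 bases before a RefSeq start (GRCm38.p6), 5′ to 3′ on the gene's own strand. Capitals mark each match, on the other strand too, where ACGTG reads as CACGT. An E-box of the Myc type (CACGTG) holds the motif on both strands and counts as 1 site.
Hk2, chr6:82774455-82774704, minus strand: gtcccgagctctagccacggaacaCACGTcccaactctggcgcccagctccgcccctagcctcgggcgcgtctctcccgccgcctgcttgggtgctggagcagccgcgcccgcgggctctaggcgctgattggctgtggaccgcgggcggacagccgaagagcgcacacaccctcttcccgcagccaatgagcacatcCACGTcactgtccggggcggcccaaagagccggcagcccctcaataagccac
Pgk1, chrX:106186850-106187099, plus strand: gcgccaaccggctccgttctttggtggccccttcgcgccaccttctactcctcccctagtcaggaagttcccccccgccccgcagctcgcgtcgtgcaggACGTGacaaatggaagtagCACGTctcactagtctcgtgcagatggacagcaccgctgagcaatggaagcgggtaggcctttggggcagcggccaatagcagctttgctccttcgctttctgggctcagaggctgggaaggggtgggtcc
Ldha, chr7:46845554-46845803, plus strand: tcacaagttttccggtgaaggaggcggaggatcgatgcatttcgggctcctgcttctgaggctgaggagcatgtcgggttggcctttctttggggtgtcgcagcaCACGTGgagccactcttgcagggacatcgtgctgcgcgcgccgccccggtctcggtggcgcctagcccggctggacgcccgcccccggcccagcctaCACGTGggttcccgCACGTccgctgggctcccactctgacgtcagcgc
In Ldha the 3 sites began 145, 48 and 34 bases before the start, in Pgk1 the 2 sites began 150 and 131 bases before it, and in Hk2 they began 226 and 52 bases before it. At least 1 match stood before some start of 8 of the 10 genes, counting 13 of their 17 listed starts. The same letters stood before some start of 41.5% of all 27025 genes in the table, or 38.6% of its 32851 starts, and of 9 of the 17 other isoenzyme genes with an entry. Gpi1 and Tpi1 had none in this window. A match is a description of letters and no evidence of binding.

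Levels were compared between genes only per kilobase of merged exon length, in the scramble group. The order was Aldoa (487 ± 145 CPM per kb, SD, n = 4), Pkm (349.9 ± 75.4), Eno1 (240.0 ± 62.7), Ldha (206 ± 52.7), Tpi1 (141 ± 51.7), Gpi1 (108 ± 24.1), Pgk1 (48.2 ± 16.6), Pfkl (31.8 ± 9.22), Hk2 (28.1 ± 3.69) and Aldoc (5.24 ± 3.67). Neighbours in this order overlapped over the 4 libraries except at 2 places, between Gpi1 and Pgk1 and between Hk2 and Aldoc. These ranges include differences between libraries that the genes share. Within each scramble library the order from Aldoa to Pfkl was the same, and only Pfkl and Hk2 changed places. Of the genes tested, 33 stood above Aldoa and 59 above Pkm. The order depends on reads that several genes can share. In the annotated transcripts, 72.2% of the 50-base words of Eno1 occur in other genes, mostly in Eno1b and the pseudogene Gm4735, and 68.0% of those of Pgk1, mostly in Pgk1-rs7. The shares were 34.4% for Pkm, 16.6% for Ldha, 13.5% for Aldoa, 10.2% for Gpi1 and 7.51% for Tpi1, under 0.1% for Pfkl, and 0 for Hk2 and Aldoc. These words are counted on the longest transcript. Per kilobase of that length Aldoa stood at 916 ± 273 CPM, Pkm at 719 ± 155 and Eno1 at 637 ± 166, in the same order as above. Divided by the words that no other gene holds, Eno1 came first at 2347 ± 613 CPM per kb, and Pkm (1119 ± 241) and Aldoa (1094 ± 326) followed. The levels of Eno1 and Pgk1 are therefore uncertain, because the counts do not show where reads with several alignments would have gone. Strand use in counting is not given in the sources used here, so counts of Hk2, Gpi1, Aldoa and Tpi1, which overlap another gene on the opposite strand, and of Pkm, which overlaps one on its own strand, may hold reads of that gene. In scramble the 10 genes together took 0.725%, 0.868%, 0.525% and 0.585% of the reads in genes, in miRbmx 0.938%, 1.40%, 0.799% and 0.744%, and in miRbmxl1 0.995%, 0.908%, 0.897% and 0.743%, each in the order of replicates 1 to 4.

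All 10 genes were higher in both knockdowns than in scramble, by a median log2 fold change of 0.61 in miRbmx (from 0.28 in Gpi1 to 0.78 in Tpi1) and 0.49 in miRbmxl1 (from 0.21 in Gpi1 to 0.69 in Aldoc). The medians over all genes tested were -2.2e-05 and 0.0070. The fit passed 10 of 10 as higher in miRbmx, where it passed 8.35% of all genes tested, 4.16% as higher and 4.19% as lower, and 7 of 10 in miRbmxl1 (not Hk2, Gpi1 and Pkm), where it passed 4.46%, 2.25% as higher and 2.2% as lower. These counts describe the choice of the genes, and nothing is read from them. Both comparisons share the same 4 scramble libraries. Without the block 0 of the 10 passed in either comparison, with medians of 0.62 and 0.45, and the only gene called in each, 0.00569% of those tested, was the targeted one.

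**Figure D1:**
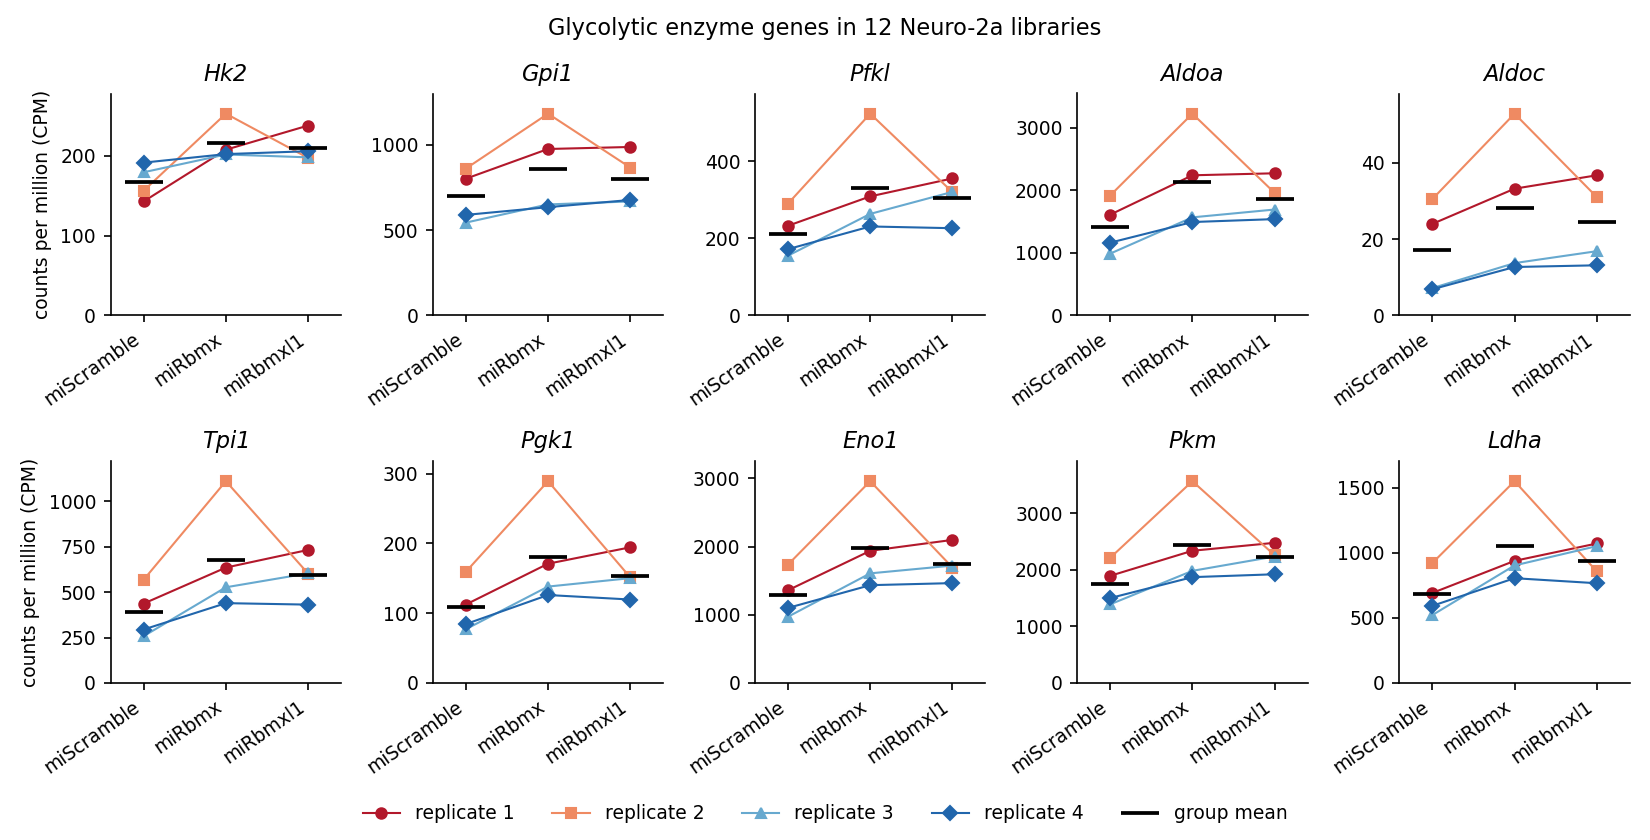
Level of each of the 10 genes in the 12 libraries, in CPM on a linear axis that starts at 0. Each line joins the libraries of 1 replicate number across the groups and the black bar is the group mean. Replicate 2 of miRbmx is the highest library in all 10 panels, and in scramble and miRbmx replicates 3 and 4 lie under replicates 1 and 2 in all panels except that of Hk2 in scramble. In miRbmxl1 they do so in 5 of the 10 panels, those of Gpi1, Aldoa, Aldoc, Pgk1 and Pkm.

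Hk2 (chr6:82725025-82774454, minus strand) encodes hexokinase 2, which traps glucose as glucose 6-phosphate in the first step. It measured 143, 156, 179 and 191 CPM in scramble replicates 1 to 4, 208, 253, 202 and 202 CPM in miRbmx, and 238, 197, 198 and 206 CPM in miRbmxl1. Every knockdown library stood above every scramble library, which was the case for none of the other 9 genes. Over all genes tested, 4.22% had such a gap upward in miRbmx and 2.88% in miRbmxl1. The log2 fold change was 0.37 ± 0.10 (SE) in miRbmx and 0.33 ± 0.10 in miRbmxl1. In scramble its highest values were in replicates 3 and 4, the reverse of the other 9 genes.

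Gpi1 (chr7:34201330-34230336, minus strand) encodes the isomerase that makes fructose 6-phosphate in the second step. Its values were 801, 859.8, 543 and 589 CPM in scramble, 975, 1182, 650.1 and 634 CPM in miRbmx, and 987, 866, 668 and 676 CPM in miRbmxl1. The groups overlapped, since replicates 3 and 4 of the knockdowns lay below replicates 1 and 2 of scramble. It had the smallest change of the 10 genes, 0.28 ± 0.08 in miRbmx and 0.21 ± 0.08 in miRbmxl1.

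Pfkl (chr10:77986947-78010083, minus strand) encodes the liver-type subunit of phosphofructokinase, the main regulated step of the pathway. It measured 232, 289.8, 155 and 172 CPM in scramble, 309, 523, 263 and 231 CPM in miRbmx, and 355, 319.7, 320.5 and 226 CPM in miRbmxl1. Each knockdown library was above the scramble library of its number, while the groups as a whole overlapped. The changes were 0.62 ± 0.12 and 0.56 ± 0.12.

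Aldoa (chr7:126795234-126800751, minus strand) encodes aldolase A, which cuts fructose 1,6-bisphosphate into triose phosphates. Its levels were 1609.6, 1916, 987 and 1162 CPM in scramble, 2239.9, 3225, 1567 and 1493 CPM in miRbmx, and 2272, 1957, 1693 and 1539 CPM in miRbmxl1. It was the most abundant of the 10 per kilobase of merged exons, and its groups overlapped. The changes were 0.57 ± 0.11 and 0.44 ± 0.11. Aldoc (chr11:78322968-78327781, plus strand) encodes aldolase C, the form typical of brain. It measured 24.0, 30.5, 7.15 and 6.84 CPM in scramble, 33.2, 52.9, 13.7 and 12.7 CPM in miRbmx, and 36.7, 31.0, 16.8 and 13.1 CPM in miRbmxl1. Replicates 1 and 2 were higher than replicates 3 and 4 in every group, and this gap was wider than the change in either knockdown, 0.76 ± 0.15 and 0.69 ± 0.15.

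Tpi1 (chr6:124810586-124814296, minus strand) encodes the isomerase that interconverts the triose phosphates. It measured 437, 568, 257 and 294 CPM in scramble, 635, 1111, 527 and 439 CPM in miRbmx, and 733, 602, 603 and 431 CPM in miRbmxl1. The groups overlapped, and replicate 2 of miRbmx stood far above the rest. Its change in miRbmx was the greatest of the 10, 0.78 ± 0.14, and in miRbmxl1 it was 0.67 ± 0.14.

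Pgk1 (chrX:106187100-106203699, plus strand) encodes phosphoglycerate kinase, the first step that makes ATP. Its values were 112, 159, 76.9 and 84.3 CPM in scramble, 171, 289, 138 and 126 CPM in miRbmx, and 194, 151, 150.2 and 119.5 CPM in miRbmxl1. Replicate 2 of miRbmxl1 was slightly under replicate 2 of scramble, while the other 7 knockdown libraries exceeded the scramble library of their number. The changes were 0.73 ± 0.13 and 0.57 ± 0.13. Eno1 (chr4:150236721-150248879, plus strand) encodes the general form of enolase. It measured 1359, 1735, 970.3 and 1099.8 CPM in scramble, 1938, 2961, 1608 and 1434 CPM in miRbmx, and 2099, 1693, 1722 and 1464 CPM in miRbmxl1. Here too replicate 2 of miRbmxl1 lay just under replicate 2 of scramble, and the groups overlapped. The changes were 0.60 ± 0.12 and 0.47 ± 0.12.

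Pkm (chr9:59656368-59679375, plus strand) encodes the muscle pyruvate kinase, whose splice forms M1 and M2 gene counts cannot separate. It measured 1895, 2213, 1390.2 and 1501 CPM in scramble, 2339, 3571, 1984 and 1872 CPM in miRbmx, and 2480.0, 2259.5, 2237 and 1923 CPM in miRbmxl1. Each knockdown library was above the scramble library of its number, and the groups overlapped. The changes were 0.46 ± 0.10 and 0.38 ± 0.10. Ldha (chr7:46841475-46855627, plus strand) encodes the A subunit of lactate dehydrogenase. Its levels were 691, 921, 521 and 592 CPM in scramble, 938, 1551, 903 and 805 CPM in miRbmx, and 1072, 857, 1052 and 766 CPM in miRbmxl1. Replicate 2 of miRbmxl1 was below replicate 2 of scramble, and the groups overlapped. The changes were 0.61 ± 0.14 and 0.50 ± 0.14.

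Ratios between libraries of the same number show which libraries carried these changes. In miRbmx all 10 genes were above scramble in each of the 4 numbers, with median log2 ratios of 0.47, 0.76, 0.75 and 0.40 in replicates 1 to 4. In miRbmxl1 all 10 were above scramble in replicates 1, 3 and 4, with medians of 0.62, 0.90 and 0.40, whereas in replicate 2 the median was 0.028 and 7 of the 10 were above. Over all genes tested, 17.7% were above scramble in all 4 numbers in miRbmx and 13.4% in miRbmxl1. Without replicate 2 of miRbmx the median change in that group was 0.46 and 6 of the 10 passed, where 2.94% of all genes tested did. Without replicate 3 of scramble the median change was 0.51 and 4 of the 10 passed, where 1.60% of all genes did.

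**Figure D2:**
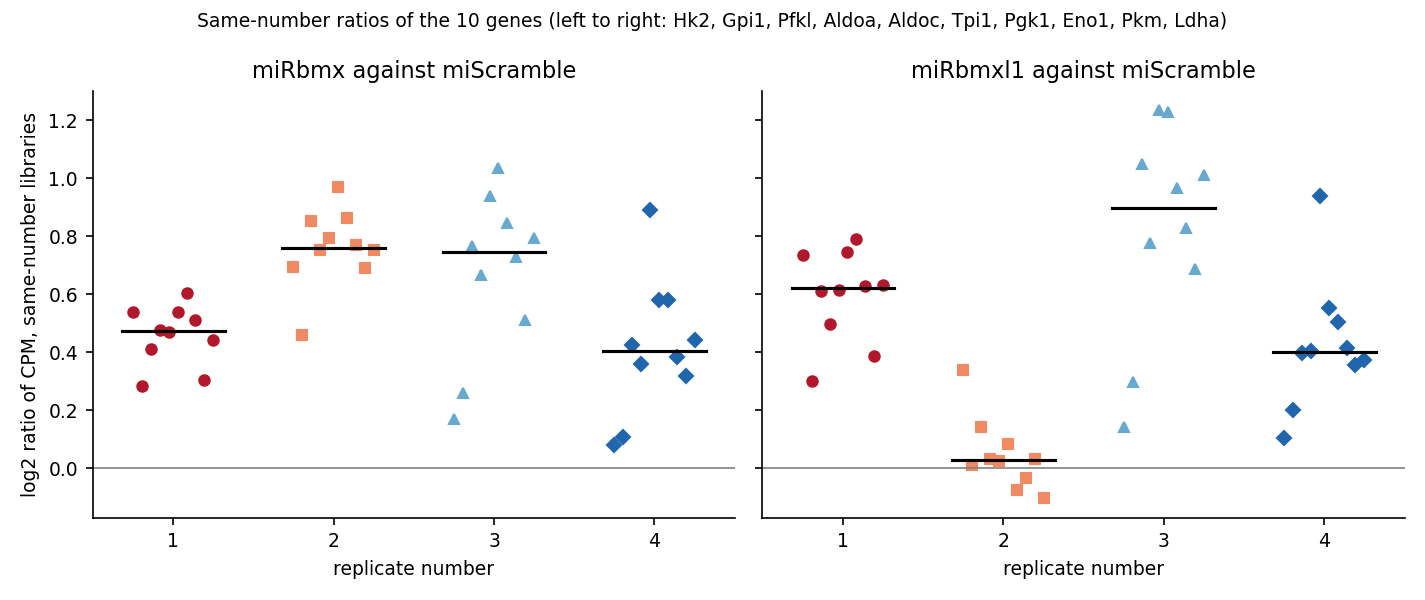
Log2 ratio of CPM between the knockdown library and the scramble library of the same replicate number, 1 point per gene, with the median of the 10 genes as a black line. The points of miRbmxl1 replicate 2 lie around 0 (median 0.028), and the medians of the other 7 pairs lie between 0.40 and 0.90.

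In miRbmxl1 the count that passed also moved with single libraries, as did the share of all genes called, and nothing is read from it. It was 3 without scramble replicate 1 (1.38% of all genes tested called), 2 without scramble replicate 2 (1.13%) or 4 (1.72%), and 0 without scramble replicate 3 (0.723%) or without miRbmxl1 replicate 1 (1.32%), 3 (1.99%) or 4 (1.83%). Without miRbmxl1 replicate 2 it was 9 (6.04%), with a median change of 0.67. Within replicates 1 and 2 alone, a fit with few degrees of freedom, the medians were 0.64 in miRbmx and 0.34 in miRbmxl1 and 0 of the 10 passed, where 0.0228% and 0.171% of all genes did. Within replicates 3 and 4 the medians were 0.56 and 0.65, and 8 and 9 of the 10 passed, where 10.4% and 5.70% of all genes did. All 10 genes kept the direction given above in all of these fits, which share libraries with the choice of the genes.

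A direct contrast of miRbmx with miRbmxl1 leaves scramble out. None of the 10 genes differed by edgeR's quasi-likelihood test (0 of 10 called and 0 at an unadjusted p under 0.05, lowest adjusted p = 0.903), where 0.0114% of all genes, or 2, were called, 0.00569% in each direction, and 1002 had an unadjusted p under 0.05. Without the block 0 of 10 were called, 0 had an unadjusted p under 0.05, the median log2 difference was 0.18 and 2 genes were called in all. With the block, all 10 fitted values were slightly higher in miRbmx, with a median of 0.10. The largest was that of Pgk1, 0.16 with a 95% interval from -0.12 to 0.44, and the smallest that of Hk2, 0.041 with an interval from -0.17 to 0.25. The narrowest interval was that of Gpi1, from -0.086 to 0.24. All 10 intervals included 0, and none is narrow enough to show that the knockdowns act alike. The sign rested on replicate 2: the median log2 ratio was 0.75 there and -0.17, -0.15 and -0.028 in replicates 1, 3 and 4. None of the 10 was higher in miRbmx in 4 of 4 numbers, where 5.63% of all genes tested were. Without replicate 2 of each group the median difference was -0.088, and it was -0.028 without miRbmx replicate 2 alone and -0.058 without miRbmxl1 replicate 2 alone.

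Genes of the same steps that are not among the 10 were measured in the same fit, and their adjusted p-values are edgeR's over all genes tested. Of 20 such genes 13 were tested, and 5 rose and 0 fell in miRbmx, while 4 rose and 0 fell in miRbmxl1. Over all genes tested, 4.16% rose and 4.19% fell in miRbmx, and 2.25% and 2.2% in miRbmxl1. The median log2 fold changes of the 13 genes were 0.20 and 0.21. Both steps that the 10 genes leave out moved the same way. Gapdh, the glyceraldehyde 3-phosphate dehydrogenase, measured 1141, 1291, 894 and 970.0 CPM in scramble, 1529.7, 2066, 1223 and 1168 CPM in miRbmx, and 1594, 1320.1, 1291 and 1259 CPM in miRbmxl1. It rose by 0.46 ± 0.10 (adjusted p = 0.012) and 0.36 ± 0.10 (adjusted p = 0.044), and was higher in 4 of 4 numbers in both. Pgam1, the phosphoglycerate mutase, rose by 0.58 ± 0.13 (adjusted p = 0.015) in miRbmx and by 0.47 ± 0.13 (adjusted p = 0.049) in miRbmxl1, higher in 4 and in 3 of 4 numbers. Of their 50-base words 27.8% and 41.5% occur in other genes, in Gapdh mainly pseudogenes.

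The hexokinases and phosphofructokinases showed how isoenzymes of a step compared. Hk1, the widely expressed hexokinase, measured 255 to 312 CPM in scramble, 292 to 396 CPM in miRbmx and 302 to 377 CPM in miRbmxl1. It rose by 0.24 ± 0.06 (adjusted p = 0.027) in miRbmx, and its value in miRbmxl1 was 0.21 ± 0.06 (adjusted p = 0.062). Hk2 made up 45.5% ± 5.37 (SD, n = 4) of the summed Hk1 and Hk2 level per kilobase in scramble, 47.8% ± 2.30 in miRbmx and 47.6% ± 1.13 in miRbmxl1, and the ratio of Hk2 to Hk1 was higher in only 2 of 4 numbers in either knockdown. Pfkm and Pfkp, the muscle-type and platelet-type phosphofructokinases, did not pass the test, with values of 0.20 ± 0.07 and 0.18 ± 0.07 in miRbmx (adjusted p = 0.104 and 0.103) and 0.17 ± 0.07 and 0.14 ± 0.07 in miRbmxl1 (adjusted p = 0.196 and 0.253). The ratio of Pfkl to Pfkp was higher than in scramble in 4 of 4 numbers in both knockdowns, by a mean log2 change of 0.43 ± 0.17 (SD, n = 4) in miRbmx and 0.41 ± 0.27 in miRbmxl1. Pfkl over Pfkm was higher in 4 of 4 as well, by 0.41 ± 0.26 and 0.38 ± 0.43. Per kilobase of merged exons, Pfkl made up 31.1% ± 5.67 of the 3 phosphofructokinase genes in scramble, 37.5% ± 6.03 in miRbmx and 36.8% ± 2.89 in miRbmxl1. Because Pfkl was chosen for its rise, these ratios are descriptions.

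Among the aldolases, Aldoc made up 0.969% ± 0.451 of the summed Aldoa and Aldoc level per kilobase in scramble, 1.07% ± 0.357 in miRbmx and 1.11% ± 0.345 in miRbmxl1. These shares depend on the length used: with the longest transcript in place of merged exons they were 0.606%, 0.669% and 0.697%, and in scramble those of Hk2 and Pfkl given above were 31.3% and 39.0%. Between libraries of the same number the ratio of Aldoc to Aldoa was higher than in scramble in 3 of 4 numbers in both knockdowns, by a mean log2 change of 0.21 ± 0.25 (SD, n = 4) in miRbmx and 0.28 ± 0.26 in miRbmxl1; both are descriptions, with no test. Among the enolases, Eno1b rose by 0.65 ± 0.12 (adjusted p = 0.0082) and 0.52 ± 0.12 (adjusted p = 0.027), but 84.5% of its 50-base words occur in other genes, Eno1 among them, so that its counts are not independent of Eno1. Eno2, the enolase of neurons, measured 156, 141, 82.6 and 77.5 CPM in scramble, 189, 238, 91.3 and 72.4 CPM in miRbmx, and 251, 192, 125 and 81.9 CPM in miRbmxl1. It rose in miRbmxl1 by 0.46 ± 0.11 (adjusted p = 0.035, higher in 4 of 4 numbers), and its value in miRbmx was 0.28 ± 0.11 (adjusted p = 0.142, 3 of 4). Its difference between the knockdowns was not called. Eno3, the muscle enolase, had values of 0.022 ± 0.096 and -0.038 ± 0.096. Of the 7 genes that were not tested for low counts, Ldhb, Pgk2 and Pgam2 had 0 counts in all 12 libraries, which allows a level of up to 0.0557 to 0.0698 CPM (3 counts, counting error only). Of Ldha, Ldhb and Ldhc only Ldha passed the filter on low counts, and 27.0% of the words of Ldhb are shared with other genes. Bpgm, Eno4, Hk3 and Hkdc1 were not called in either knockdown.

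The calls of Hk1, Gapdh, Pgam1, Eno1b and Eno2 were lost without the block, where their adjusted p-values lay between 0.31 and 0.82. Of 25 alternative fits, the call in miRbmx was kept in 23 for Eno1b, 21 for Gapdh, 20 for Pgam1 and 10 for Hk1, and the call in miRbmxl1 in 13 for Eno2, 12 for Eno1b, 10 for Gapdh and 7 for Pgam1. Of the 5 calls in miRbmx, 1 was left without scramble replicate 3, and 3 were left without scramble replicate 1 or 4 or without miRbmx replicate 1, 2 or 3. Of the 4 calls in miRbmxl1, 0 were left without scramble replicate 1 or 3 or without miRbmxl1 replicate 1, 3 or 4, 1 was left without scramble replicate 2 or 4, and 2 without miRbmx replicate 1 or 3.

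**Figure D3:**
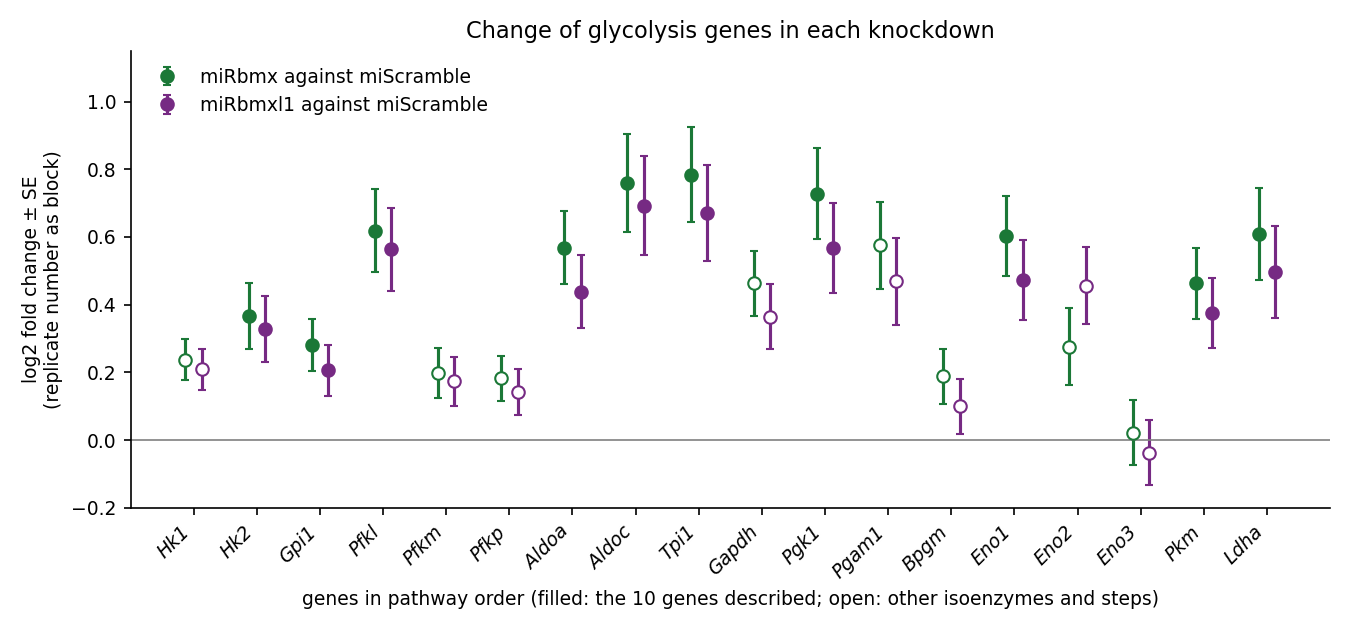
Log2 fold change against scramble with its SE for genes in pathway order, from the fit with the replicate number as block. Filled points are the 10 genes described, which were chosen for these changes, and open points are other isoenzymes and steps. Gapdh and Pgam1 lie among the 10, and Pfkm, Pfkp, Bpgm and Eno3 lie closer to 0.

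Genes around the pathway were read from lists, and no list is set against another. The counts of each list stand beside 4.16% of all genes tested that rose and 4.19% that fell in miRbmx, and 2.25% and 2.2% in miRbmxl1. Of 16 tested genes of glucose and lactate transport and of the regulation of the pathway, 6 rose and 0 fell in miRbmx, and 4 rose and 0 fell in miRbmxl1. Pdk1, the kinase that holds pyruvate back from oxidation in the mitochondria, rose by 1.01 ± 0.20 (adjusted p = 0.0095) and 0.95 ± 0.20 (adjusted p = 0.017). Slc16a3, which exports lactate, measured 448, 602, 323 and 341 CPM in scramble, 691, 1323, 621 and 506 CPM in miRbmx, and 845, 669, 751 and 476 CPM in miRbmxl1. It rose by 0.83 ± 0.15 (adjusted p = 0.0080) and 0.72 ± 0.15 (adjusted p = 0.018). The glucose transporter genes Slc2a1 (0.67 ± 0.14 in both) and Slc2a3 (0.48 ± 0.10 and 0.49 ± 0.10) rose in both as well. The 4 Pfkfb genes, whose products set the level of the allosteric activator of phosphofructokinase, were not called in either knockdown.

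Of 20 hypoxia-inducible genes that encode no enzyme of the glycolytic steps, 12 rose and 0 fell in miRbmx, with a median of 0.40, and 8 rose and 0 fell in miRbmxl1, with a median of 0.37, where 4.16% and 2.25% of all genes rose. Pfkfb3 is in this list and in that of transport and regulation. In miRbmx 1 gene of the list was called and lower with no filter on low counts, with only the 2 groups, with DESeq2, without miRbmx replicate 4 and without miRbmxl1 replicate 2. Ankrd37, an ankyrin repeat gene, measured 2.35, 2.12, 1.37 and 1.64 CPM in scramble, 4.86, 3.37, 2.81 and 3.86 CPM in miRbmx, and 7.96, 6.17, 3.54 and 3.00 CPM in miRbmxl1. It rose by 1.01 ± 0.19 (adjusted p = 0.0084) and 1.42 ± 0.19 (adjusted p = 0.0015). Both knockdown groups lay wholly above scramble, as did the groups of 4.22% and 2.88% of all genes tested, and the knockdown groups overlapped each other. Bnip3, which acts in mitophagy, rose by 0.95 ± 0.20 and 0.97 ± 0.20, Egln3, a prolyl hydroxylase of the hypoxia-inducible factors, by 1.01 ± 0.23 and 0.97 ± 0.23, and Adm, the vasodilator peptide adrenomedullin, by 0.89 ± 0.17 and 1.03 ± 0.17. Among the genes of the list not called in either knockdown were Vegfa at -0.21 and -0.037, Kdm3a at -0.053 and 0.019, and Bhlhe40 at -0.083 and 0.067. Vegfa measured 263 to 289 CPM in scramble, 225 to 261 CPM in miRbmx and 233 to 305 CPM in miRbmxl1. Its miRbmx libraries thus lay wholly below scramble, and the share of all genes with such a gap downward was not counted. Of 8 genes of transcription factors that are known to act on the pathway, Epas1 was too low to be tested and Hif1a, Arnt, Myc, Usf1 and Sp1 were not called in either knockdown. Mycn rose by 0.56 ± 0.12 (adjusted p = 0.013) and 0.66 ± 0.12 (adjusted p = 0.0084), and Max fell by 0.23 in miRbmxl1 (adjusted p = 0.038). Max was lower in both knockdowns, at 80.6 to 84.7 CPM in miRbmx and 75.4 to 86.4 CPM in miRbmxl1, beside 90.3 to 99.5 CPM in scramble. The call of Mycn in miRbmx was lost without scramble replicate 3 or miRbmx replicate 3. That of Max was lost without any 1 of the 4 scramble libraries, without miRbmx replicate 1 and without miRbmxl1 replicate 1, 2 or 3.

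Of 21 genes of pyruvate oxidation and the citric acid cycle, 7 rose and 0 fell in miRbmx (median 0.15) and 2 rose and 0 fell in miRbmxl1 (median 0.08). The fumarase gene Fh1 rose by 0.39 ± 0.08 and 0.33 ± 0.08, and the malate dehydrogenase gene Mdh2 by 0.29 ± 0.06 and 0.22 ± 0.06. Sdhc, a subunit of succinate dehydrogenase, and Suclg1, a subunit of succinyl-CoA ligase, rose in miRbmx by 0.32 ± 0.07 and 0.30 ± 0.08. Of 16 genes of the pentose phosphate pathway and of glycogen, 6 rose and 0 fell in miRbmx and 2 rose and 0 fell in miRbmxl1. In miRbmx 1 of them was called and lower with no filter, without replicate 4 of every group and without scramble replicate 4 alone. Gys1, the glycogen synthase, rose by 0.54 ± 0.09 and 0.52 ± 0.09, and Pgm2, a phosphoglucomutase, by 0.35 ± 0.07 and 0.27 ± 0.07. Pgm1, the other phosphoglucomutase, and Pygl, a glycogen phosphorylase, rose in miRbmx by 0.53 ± 0.13 and 0.45 ± 0.08. Of 4 tested gluconeogenesis genes, G6pc3 rose in miRbmx by 0.20 ± 0.06 and none was called in miRbmxl1. That call was lost without any 1 of the scramble or miRbmx libraries, without miRbmxl1 replicate 4, with DESeq2 size factors, with the GC correction and with no filter. Without the block none of the genes of these lists was called, and without scramble replicate 3 the calls in miRbmx fell from 12 to 5 for the hypoxia list, from 6 to 2 for transport and regulation, from 7 to 1 for the citric acid cycle and from 6 to 2 for pentose phosphate and glycogen. In miRbmxl1 the same omission took the hypoxia list from 8 to 2 and transport and regulation from 4 to 0. Over the 12 omissions of 1 library, the calls in miRbmxl1 ranged from 2 to 11 for the hypoxia list, from 0 to 6 for transport and regulation, from 0 to 4 for the citric acid cycle and from 1 to 5 for pentose phosphate and glycogen.

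The difference between replicate numbers is a contrast that did not enter the choice of the genes. By edgeR's F-test over the 4 numbers, with the group as the other term, 9 of the 10 genes differed, all 9 lower in replicates 3 and 4 than in replicates 1 and 2, where 35.3% of all genes tested were called, 17.8% as lower and 17.5% as higher. The median log2 difference of the 10 was -0.58, and that over all genes tested was 0.027. Aldoc had the largest, at -1.60 ± 0.12, a level of 0.329 times that in replicates 1 and 2. The other 8 lay between -0.69 ± 0.11 (Tpi1, adjusted p = 0.00077) and -0.38 ± 0.11 (Ldha, adjusted p = 0.025). Hk2 was not called (0.0035 ± 0.079, adjusted p = 0.958). Hk1 was called at -0.27 ± 0.05 (adjusted p = 0.0038). Of the other isoenzymes 7 were called and lower and 1 was called and higher, Eno4 at 1.07 ± 0.15, and Eno2 was called at -1.13 ± 0.09. Of the 20 hypoxia-inducible genes, 14 were called and lower and 2 called and higher, Car12 and Pfkfb3, the latter also in the list of transport and regulation. Of 21 genes of the citric acid cycle list, 6 were called and higher and 0 called and lower, and 15 were not called. Depth does not separate these libraries, at 43788037 to 48604041 reads in genes in replicates 1 and 2 and 43096846 to 52241198 in replicates 3 and 4, nor does the mitochondrial share, at 0.972% to 1.36% and 1.02% to 1.46%. The share of reads outside features does, and its part in the difference was not tested. Since the labels do not say what the numbers stand for, day, culture and handling cannot be told apart.

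**Figure D4:**
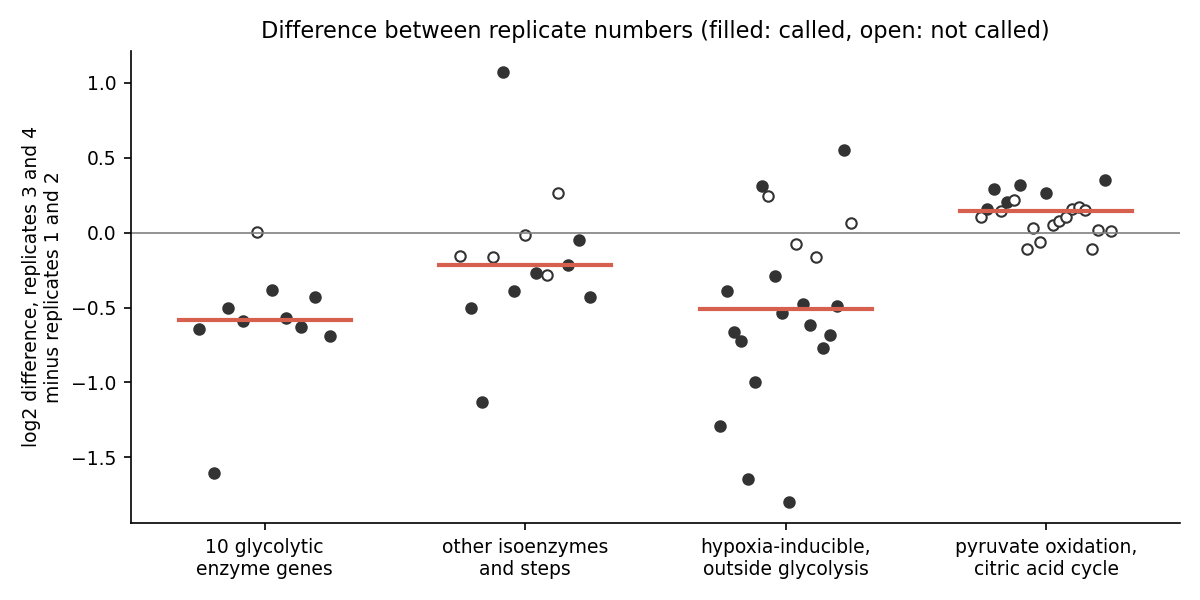
Log2 difference between replicates 3 and 4 and replicates 1 and 2 over all groups, 1 point per tested gene, with the list median as a red line. Filled points are genes called by the F-test over the 4 replicate numbers. Of the 10 glycolytic enzyme genes 9 are called and below 0 (median -0.58), and the called genes of the citric acid cycle list lie above 0.

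Whether a knockdown change itself differed between the replicate sets was tested as an interaction. None of the 10 genes passed in either knockdown (lowest adjusted p = 0.304 in miRbmx and 0.423 in miRbmxl1), with 1 and 2 of the 10 at an unadjusted p under 0.05, and edgeR called 0% of all genes tested in both, with 1944 and 1468 genes at an unadjusted p under 0.05. Hk2 had the largest difference in miRbmx, its change being smaller in replicates 3 and 4 by 0.50 ± 0.14, with changes of 0.63 within replicates 1 and 2 and 0.12 within replicates 3 and 4. In miRbmxl1 it was smaller there by 0.42 ± 0.15, and that of Aldoc was larger by 0.75 ± 0.23.

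Levels of the 10 genes were correlated over the 12 libraries as a description. After centring log2 CPM on the mean of each replicate number, Pearson's r between 2 of the genes had a median of 0.97 over 45 pairs, from 0.65 to 1.00. Hk2 gave the lowest values, with a median of 0.76 over its 9 pairs, and the 36 pairs without it ran from 0.88 to 1.00. Without the centring the median over 45 pairs was 0.95, from 0.28 to 1.00, and that of the 9 pairs of Hk2 was 0.55. The points share libraries and scaling, and the high values in miRbmx replicate 2 enter every pair. The rise over scramble by which the genes were chosen was not removed, so the choice itself sets part of r. Of 10532 other genes with a mean of at least 5 CPM, those most like the mean of the 10 by this measure were Eno1b (r = 0.997), Slc37a4 (0.996), Slc16a3 (0.996), Gm4735 (0.994) and Fam162a (0.992), of which Eno1b and Gm4735 share sequence with Eno1. Slc37a4 encodes a glucose 6-phosphate transporter of the endoplasmic reticulum. Without the centring its r was 0.63, and that of Fam162a was 0.99.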

How the data were processed

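RNA of sorted Neuro-2a cells went through ribosomal RNA removal and a stranded total RNA kit, per the labels' protocols. The authors deposited raw counts, 1 whole number per Ensembl gene identifier and library, without normalization. The submitters' processing notes name the build mm10, STAR 2.5.3a, HTSeq 0.6.1p1, R 3.3.2 and DESeq2 1.16.1, without roles. The annotation and the strand setting are not given in the sources used here. Rows that name no gene held 52.3% to 57.4% of each file, reads with several alignments among them, and were left out.

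The model was edgeR 4.0.16's quasi-likelihood fit (R 4.3.3) of all 12 libraries on group and replicate number, after filterByExpr (minimum count 10) and TMM scaling, with 6 residual degrees of freedom. "Called" means a p, adjusted by Benjamini-Hochberg over 17569 genes, under 0.05. Fold changes are log2 ± SE. The 4 libraries of a group are biological replicates per the labels. Depth of 43096846 to 52241198 reads in genes makes counting error small beside the spread between replicates for all but the lowest genes. Names and positions came from GENCODE M21 (GRCm38), which holds 55141 of the identifiers, and promoters from RefSeq (GRCm38.p6). A second identifier named Aldoa was not used.

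Same-numbered libraries were checked for pairing by correlating log2 CPM centred on group means. In 12 of 12 pairs of different groups with the same number r lay between 0.20 and 0.52. With different numbers it lay between 0.10 and 0.43 over 12 pairs within replicates 1 and 2 or 3 and 4, and between -0.57 and -0.13 over the other 24. The range for the same number overlapped that for different numbers within a set. The values therefore separate replicates 1 and 2 from 3 and 4, and do not show a pairing by single number. The block by number follows the labels, which do not say what a number stands for.

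The members and lists were chosen with earlier results of these data known. All 10 members and all isoenzymes are named or counted. A few genes of the lists are counted but not reported here by name. From each other list the text names up to 4 called genes with the largest change per comparison, and counts the rest. Vegfa, Kdm3a, Bhlhe40, Car12 and the Pfkfb genes were named after their values were seen. The 5 most alike genes had the highest centred correlation at a mean of at least 5 CPM. Shared sequence was counted as 50-base words of the longest transcript found in another gene's transcripts. The fit was tested on simulated data. Alternatives were no block, DESeq2 1.42.0, other scaling, no filter, a GC correction, 2 groups only, each library or number left out, and each replicate set alone.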

Additional observations from a re-analysis of the deposited data

Results flagged for a closer look

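Hk2 in the miRbmx group had 1 library apart from the others: replicate 2 at 253 CPM beside 202, 202 and 208 CPM, a gap of 0.883 of the group's range, above Dixon's 95% critical value for 4 libraries. This was 1 of 30 groups of 4 values checked, and chance flags about 1 group in 20. The same library was the highest of its group for all 10 genes, and it also had the highest values of Slc16a3, Slc2a1, Slc2a3 and Pdk1 of all 12 libraries.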

How the results depend on the processing

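The direction of the 10 genes against scramble was kept in all 500 values from the alternative fits (0.115 to 1.08), while the calls depended on the block and on single libraries. The genes were chosen for this rise and the fits share libraries, so the kept direction is a description. With no replicate block, edgeR called 1 gene instead of 1467 in miRbmx and 1 instead of 783 in miRbmxl1, and 0 of the 10 genes in each, at medians of 0.62 and 0.45. Leaving out a library or number gave 151 to 1944 genes in miRbmx and 107 to 1062 in miRbmxl1, 4 to 10 and 0 to 9 of the 10 genes, and 2 to 7 genes between the knockdowns. Within replicates 1 and 2 the counts were 4, 30 and 4, with 0 of the 10 genes against scramble, and within replicates 3 and 4 it was 18 between the knockdowns. For miRbmxl1 the GC correction passed 4 of the 10 genes and DESeq2 2 (1279 of all genes), the fit of 2 groups called 437 genes, and no filter called 1243. Between the knockdowns, DESeq2 called 10 genes and no filter 86. Replicate numbers gave 3814 genes without miRbmx libraries, and the interactions 12 with DESeq2 size factors and 418 with no filter. Genes with values near 0 changed sign. In miRbmx, Eno3 was -0.0105 with the GC correction, -0.0439 within replicates 1 and 2 and -0.0152 to 0.0721 with a library or number left out, Hkdc1 was 0.14 within replicates 1 and 2, and Hk3 was 0.28 within replicates 3 and 4 and -0.79 to 0.17 with one left out. In miRbmxl1 within replicates 3 and 4, Eno3 was 0.0408 and Eno4 -0.0361, and with one left out Eno4 was -0.00518 to 0.12 and Hk3 -0.0606 to 0.74. Dividing levels by unshared words was chosen after seeing the data. The cause of these differences was not tested.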
